A study of Mus musculus with 4 samples.

Results

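The 10 snoRNA host lncRNA genes described here, Gas5, Zfas1, Snhg1, Snhg3, Snhg5, Snhg6, Snhg8, Snhg12, Snhg15 and Snhg20, were taken by gene symbol from a table of 53465 mouse genes, and all 10 were found and tested. The table gave a level for each gene in 4 libraries of long RNA from cultured female germline stem cells (FGSCs), a cell line derived from mouse ovary. In 2 libraries (shNC) the cells carried a control short hairpin RNA, and in 2 (shNAT10) a hairpin against Nat10, the acetyltransferase that places N4-acetylcytidine on RNA. Both groups had been infected with lentivirus and selected with a drug, and no label said whether the libraries of a group came from separate infections, so the p-values measured only the spread between these libraries. Levels were FPKM (sequenced fragments per kilobase of exon, after the authors' scaling of the libraries), and a log2 fold change was shNAT10 over shNC on log2(FPKM + 0.1).

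A snoRNA host lncRNA gene is transcribed into a long RNA whose introns hold small nucleolar RNAs. The introns are trimmed to box C/D snoRNAs, which guide methylation of ribosomal RNA, or to box H/ACA snoRNAs, which guide its pseudouridylation, and the spliced exons are left as a lncRNA. Many of these hosts begin with a 5′ terminal oligopyrimidine (5′TOP) tract, as ribosomal protein mRNAs do, and their spliced RNAs are commonly degraded by nonsense-mediated decay when they are translated. Gas5 took its name from its rise in growth-arrested cells.

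Nat10, the targeted gene, was at 7.79 and 5.42 FPKM in the shNC libraries and at 2.95 and 3.04 FPKM in the shNAT10 libraries, which left 45.4% of the shNC mean (log2 fold change -1.09, adjusted p = 0.123, limma). The libraries held 11057940 to 14902430 fragments recovered from the FPKM, and 21531 to 22599 genes were above 0. Loci related to ribosomal RNA, counted together with a few other abundant non-coding RNA genes such as Rn7sk, took 47.2% and 37.8% of the fragments in shNC and 26.3% and 28% in shNAT10. The defining markers of the labelled cell type were at or near 0. Dazl, Pou5f1, Dppa3 and Tfap2c were listed at 0 in all 4 libraries and the germ-cell helicase Ddx4 was above 0 in 1 library only, at 0.0529 FPKM, while Ifitm3, Kit and Etv5, which other cells use too, were at 3.47 to 33.6 FPKM. The pan-leukocyte genes Ptprc, at 15.3 to 15.5 FPKM, and Coro1a, at 137 to 164 FPKM, were present in every library. The summed FPKM of the 7 pan-leukocyte markers was 335 and 369 in shNC and 282 and 298 in shNAT10. This sum moved with the groups, but not every marker did, as Ptprc (log2 fold change -0.014) and Coro1a (-0.036) hardly differed. The part of these markers in the results below was not tested. In bulk samples such as these, fewer cells of a type and less RNA per cell cannot be told apart.

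The starts of the hosts are shown because the 5′TOP tract is read from them. RefSeq (GRCm38.p6) gave 10 annotated starts for 9 members, and each line holds 50 bases around a start, with 25 bases before the first transcribed base. Capitals mark a run of C followed by at least 4 letters that are C or T, searched on the transcribed strand and beginning within 10 bases of the first transcribed base.
Gas5, the second start, chr1:161035141-161035190, plus strand: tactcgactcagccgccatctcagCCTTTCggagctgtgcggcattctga
Snhg8, chr3:123508312-123508361, minus strand: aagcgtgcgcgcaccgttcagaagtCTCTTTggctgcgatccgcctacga
Snhg12, chr4:132308653-132308702, plus strand: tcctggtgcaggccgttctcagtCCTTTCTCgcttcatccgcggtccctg
Snhg3, chr4:132353662-132353711, minus strand: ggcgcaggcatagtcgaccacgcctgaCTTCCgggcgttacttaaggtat
Snhg5, chr9:88522873-88522922, minus strand: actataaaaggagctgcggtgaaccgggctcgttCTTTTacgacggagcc
Zfas1, chr2:167062909-167062958, plus strand: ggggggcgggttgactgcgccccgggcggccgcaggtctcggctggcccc
Snhg1, chr19:8723462-8723511, plus strand: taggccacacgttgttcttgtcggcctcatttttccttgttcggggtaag

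At the first transcribed base itself, such letters stood at 2 of the 10 member starts, the second of Gas5 and that of Snhg8, beside 2.51% of 32851 annotated starts in the genome. Within 10 bases a run began at 5 of the 10 starts, those 2 and the starts of Snhg3, Snhg5 and Snhg12, beside 29.0% of all starts. The first annotated start of Gas5 had no such run. No such run lay within 10 bases of the start in Zfas1, Snhg1, Snhg15 or Snhg20, which says only that these letters are not in this window. A match is a description of the annotated start and was not measured in these libraries.

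The levels of the members spanned from 4.49 FPKM for Snhg5 in a shNAT10 library to 145 FPKM for Snhg1 in a shNC library. By the mean over 4 libraries the order was Snhg1 at 122, Zfas1 at 38.9, Snhg6 at 34.3, Gas5 at 29.3, Snhg3 at 27.8, Snhg15 at 24.1, Snhg8 at 15.8, Snhg20 at 9.22, Snhg12 at 6.10 and Snhg5 at 5.54 FPKM. Snhg1 stood clear of Zfas1, and Snhg8 of Snhg20, whereas the ranges of the 4 values overlapped between all other neighbours in this order. Snhg1 alone supplied 36.5% to 41.1% of the summed FPKM of the 10 genes. Behind these values stood 109 to 5105 fragments per member and library, so the counting error of Snhg5 and Snhg8 was larger than that of Snhg1, Zfas1 and Gas5. FPKM is per base of all annotated exons, and in Zfas1, Snhg1, Snhg8 and Snhg12 the exons of the transcript models together covered 100% of the gene, retained introns included.

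**Figure D1:**
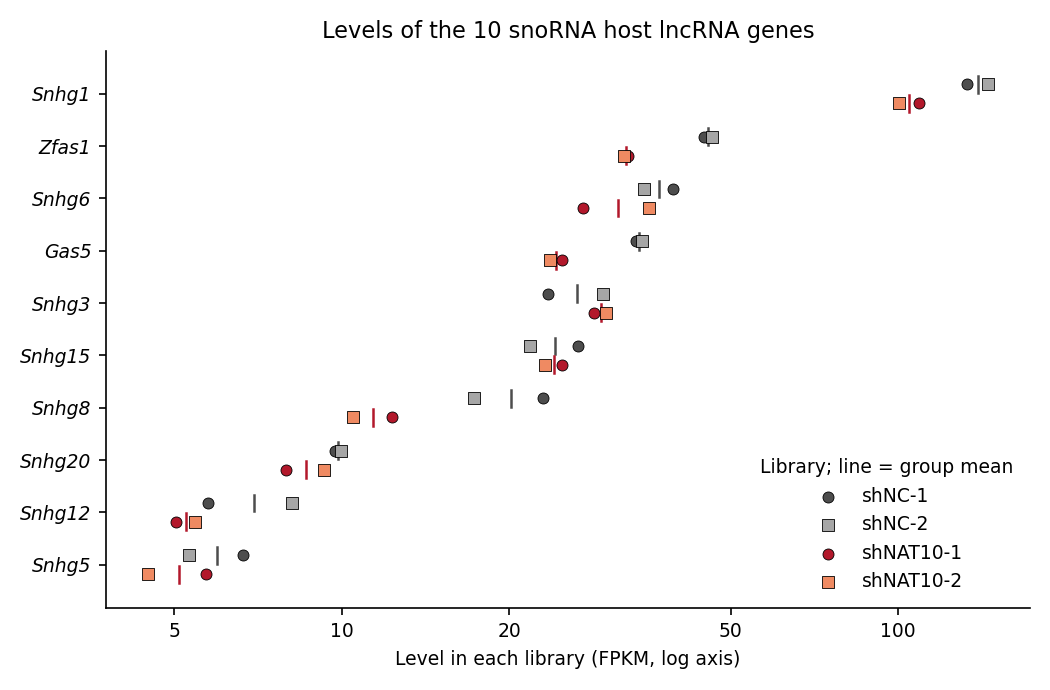
Level of each of the 10 genes (FPKM, log axis) in the 2 shNC libraries (grey) and the 2 shNAT10 libraries (red and orange), with a short line at each group mean and genes ordered by their mean. Gas5, Zfas1, Snhg1, Snhg8, Snhg12 and Snhg20 have both shNAT10 points to the left of both shNC points, while Snhg3, Snhg5, Snhg6 and Snhg15 overlap.

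Gas5, Zfas1, Snhg1 and Snhg8 fell in shNAT10, to between 56.7% and 75.3% of their shNC means, and no member rose. These 4 of the 10 genes passed a fold change over 1.2 with an unadjusted p of at most 0.05 (limma), beside 7.83% of all 20116 genes tested that passed it in the same direction, 8.41% that passed it in the other, and 14.3% of the 6016 genes with a mean of at least 5 FPKM that passed it as lower. In 6 of the 10 the higher shNAT10 value was still under the lower shNC value, as in 24.1% of all genes tested. The median log2 fold change was -0.32 over the members and 0.0054 over all genes tested. Summed over the 10 genes, the level was 346 and 353 FPKM in shNC against 278 and 275 FPKM in shNAT10.

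None of the 10 had a Benjamini-Hochberg adjusted p under 0.05 by limma on FPKM, although 88 of all genes tested did and 4 members passed at an unadjusted p. By limma-voom on the recovered fragments the same 4 members had an adjusted p under 0.05, from 0.0036 to 0.0081. Beside this, 4.24% of 17511 genes were lower at that level. The limma-voom fit kept the scaling of the deposited FPKM, and is not the scaling to all recovered fragments described below. The smallest p that 2 libraries a group allow in an exact permutation test (two-sided) is 0.33, the value that the 6 members without overlap had.

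The calls, and the direction of the members' median, rested on how the libraries were scaled. Across the libraries the FPKM were already centred on a common median ratio, and with libraries scaled instead to all recovered fragments, ribosomal RNA loci included, the median of all genes tested moved up by 0.38 on the log2 scale. On that scale 0 of the 10 members fell, beside 1.55% of all genes tested, and 2 rose, Snhg3 and Snhg15, beside 26.3% of all genes tested, a share near that background. The members' median was 0.088, which was 0.29 below that of all genes. Of the 4 members that fell on the deposited scale, Snhg8 was then at -0.40, Gas5 at -0.090, Zfas1 at -0.079 and Snhg1 at -0.0013. When the ribosomal RNA loci were left out of the fragment totals, 4 members again passed as lower, with a median of -0.25. All directions below are on the deposited scale.

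**Figure D2:**
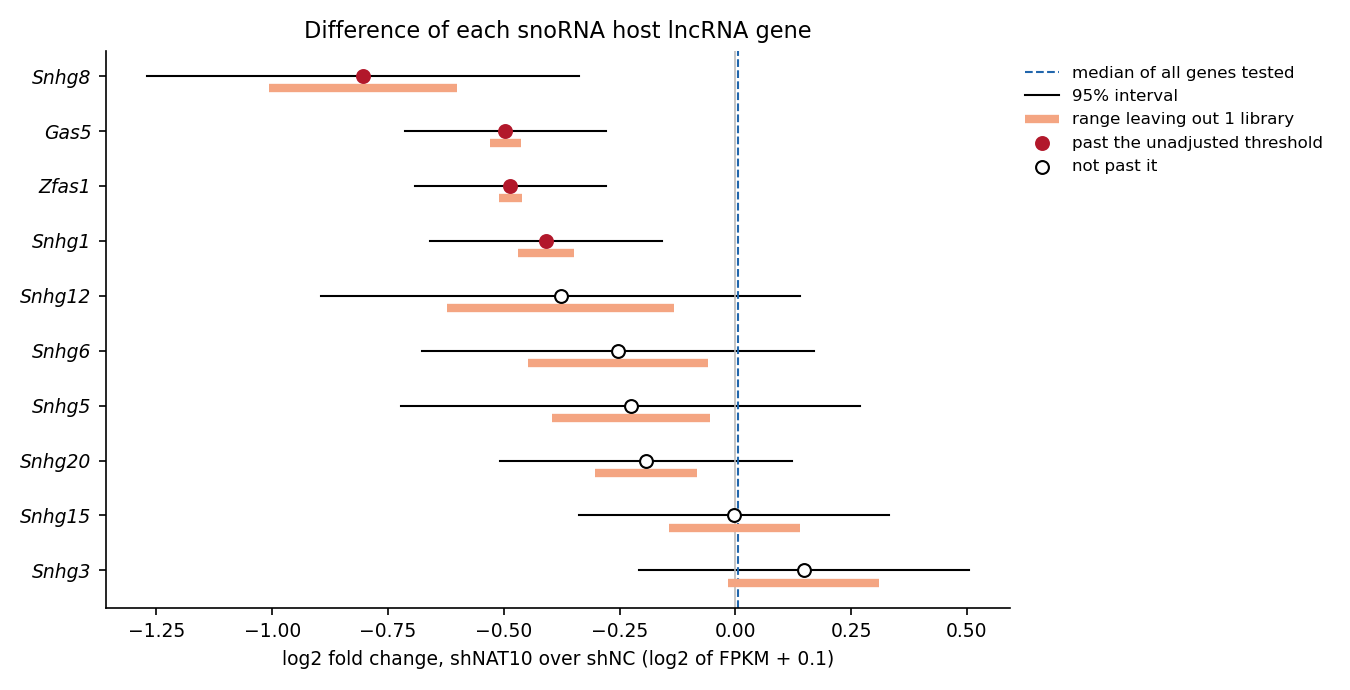
Log2 fold change (shNAT10 over shNC, on FPKM + 0.1) of each gene with its 95% interval from limma (black line) and the range of estimates when 1 library at a time was left out (orange bar). Filled points passed the unadjusted threshold, and the dashed line is the median of all genes tested, 0.0054. Only Snhg8, Gas5, Zfas1 and Snhg1 have intervals that end below 0 on the deposited scale.

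Gas5 carries 10 annotated snoRNA genes, Snord47, Snord78 and Snord80 among them, with Snord80 listed more than once. Its spliced RNA is known as a decoy for the glucocorticoid receptor. The gene (ENSMUSG00000053332) lies on chromosome 1 from 161034422 to 161038539 on the plus strand of the mouse genome build mm10. It was at 33.8 and 34.7 FPKM in shNC and at 24.8 and 23.7 FPKM in shNAT10. The groups did not overlap, and the 2 libraries of each group were close together. The log2 fold change was -0.50 ± 0.082 (SE), with a 95% interval from -0.71 to -0.28 and an adjusted p of 0.103 (limma, Benjamini-Hochberg). Whichever library was left out, the estimate passed the unadjusted threshold, at -0.53 to -0.46.

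Zfas1 (ENSMUSG00000074578), a host of 3 snoRNA genes with Snord12 among them, starts 81 bases from the start of Znfx1 and spans 167062934 to 167065862 on the plus strand of chromosome 2. The shNC libraries had 44.7 and 46.2 FPKM, and the shNAT10 libraries 32.7 and 32.1 FPKM. Again there was no overlap, and the difference was far larger than the gap within either pair. The log2 fold change was -0.49 ± 0.078 (SE), the adjusted p by limma was 0.10, and leaving out any 1 library gave an estimate from -0.51 to -0.46 that passed the unadjusted threshold.

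Snhg1 (ENSMUSG00000108414) is the host of 8 snoRNA genes, Snord22 among them, and spans 8723475 to 8726443 of chromosome 19, plus strand. Its levels were 133 and 145 FPKM in shNC against 109 and 100.2 FPKM in shNAT10. Each shNAT10 library was below each shNC library, but the spread within groups was wider than for Gas5 and Zfas1. The log2 fold change was -0.41 ± 0.095 (SE), with an adjusted p of 0.167 by limma. The call was lost without shNC replicate 2 (-0.35, unadjusted p = 0.0536 by limma) and without shNAT10 replicate 2 (-0.35, unadjusted p = 0.0804 by limma).

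Of the other hosts of box C/D snoRNAs, Snhg5 carries Snord50a and Snord50b and Snhg6 carries Snord87. Snhg5 was at 6.64 and 5.31 FPKM in shNC and at 5.71 and 4.49 FPKM in shNAT10. Snhg6 was at 39.5 and 34.9 FPKM in shNC and at 27.2 and 35.6 FPKM in shNAT10. The groups overlapped in both genes, with log2 fold changes of -0.23 (95% interval -0.72 to 0.27) and -0.25 (-0.68 to 0.17), so a fall as large as that of Gas5 was not excluded by either interval.

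Snhg8 (ENSMUSG00000104960), at 123507552 to 123508404 of chromosome 3, minus strand, carries the box H/ACA snoRNA gene Snora24, and its annotated start opens directly with the pyrimidine run shown above. It was at 23.0 and 17.3 FPKM in shNC and at 12.3 and 10.5 FPKM in shNAT10. The groups were apart, with the widest gap within shNC on the log2 scale among the 4 members that fell, and its total was 674 fragments over the 4 libraries. At -0.80 ± 0.18 (SE) it had the lowest log2 fold change of the 10, with a 95% interval of -1.27 to -0.34 and an adjusted p of 0.151 by limma. It kept the unadjusted call only without shNC replicate 2 (-1.01), and lost it without shNC replicate 1 (-0.60), shNAT10 replicate 1 (-0.92) or shNAT10 replicate 2 (-0.69).

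Snhg12 holds 5 annotated small RNA genes of both kinds, which are Snora44, Snora61, Snord99 and Snora16a, the last listed more than once. It was at 5.76 and 8.13 FPKM in shNC and at 5.05 and 5.46 FPKM in shNAT10. All of the shNAT10 values were lower, yet shNC replicate 1 was close to them. The log2 fold change of -0.38 ± 0.20 (SE) did not pass the threshold (adjusted p = 0.430, limma), and it did so only without shNC replicate 1, at -0.62.

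Snhg3, the host of Snora73a and Snora73b, was the 1 member with a log2 fold change above 0. It was at 23.5 and 29.5 FPKM in shNC and at 28.4 and 29.9 FPKM in shNAT10. Only shNC replicate 1 stood below the rest, and without it the log2 fold change was -0.015 in place of 0.15 (95% interval -0.21 to 0.50). Without shNC replicate 2 it was 0.31 and passed the unadjusted threshold as higher. The starts of Snhg3 and Snhg12 lie 45063 bases apart on chromosome 4, on opposite strands.

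Snhg15, the host of Snora9, was at 26.6 and 21.8 FPKM in shNC and at 24.9 and 23.2 FPKM in shNAT10. Both shNAT10 values lay between the shNC values, and the log2 fold change was -0.0026 with a 95% interval from -0.34 to 0.33. Snhg20, which holds a small Cajal body RNA gene and Mir6516, was at 9.71 and 9.96 FPKM in shNC and at 7.95 and 9.28 FPKM in shNAT10. Its values did not overlap between groups, but the log2 fold change of -0.19 ± 0.12 (SE) did not pass the threshold (adjusted p = 0.505, limma).

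Neither the kind of snoRNA carried nor the pyrimidine run at the start separated the members that fell from the rest. Gas5, Zfas1 and Snhg1 fell and Snhg5 and Snhg6 did not pass among the hosts of box C/D snoRNAs alone, and Snhg8 fell and Snhg3 and Snhg15 did not pass among those of box H/ACA snoRNAs alone, with Snhg12, which carries both, not past the threshold. Gas5 and Snhg8 had the run near their start and Zfas1 and Snhg1 did not. No test of these splits was made, as the members share their libraries and are few.

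**Figure D3:**
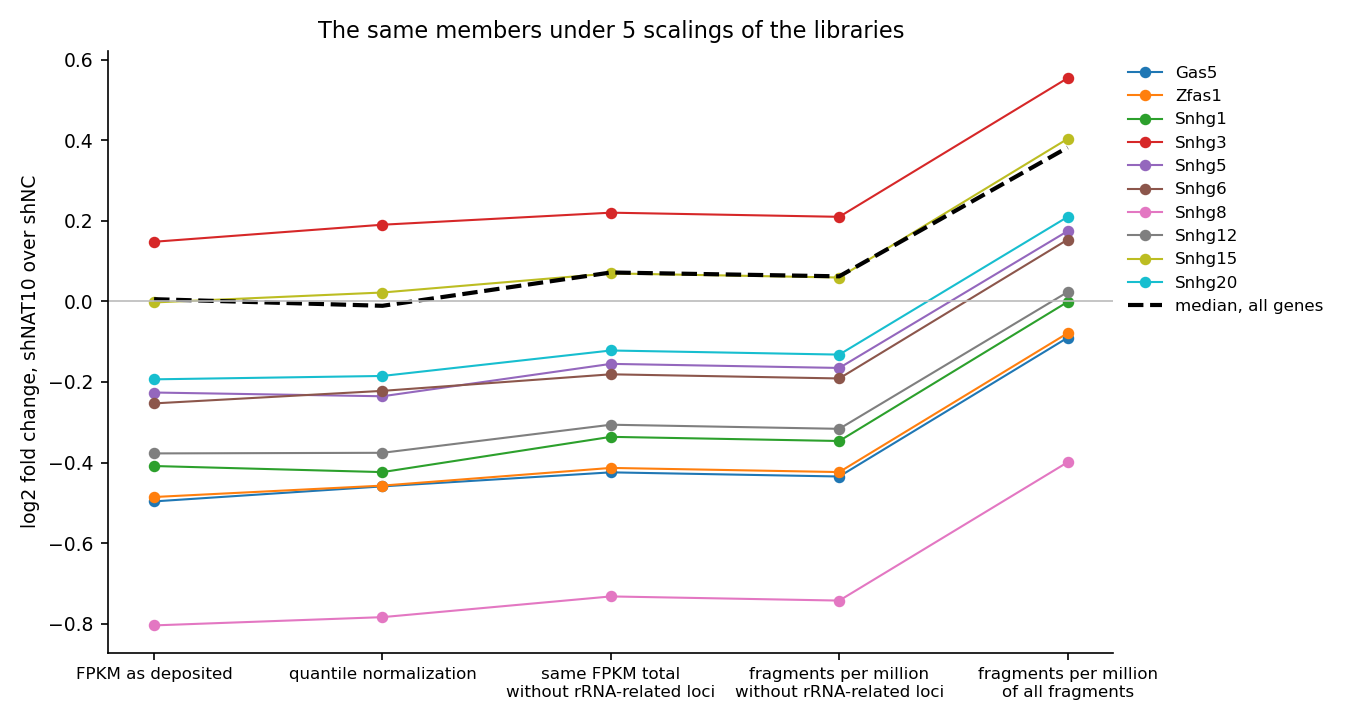
Log2 fold change (shNAT10 over shNC) of each of the 10 genes under 5 scalings of the libraries, with the median of all genes tested as a dashed line. The order of the genes is nearly the same throughout, while the whole set shifts up by about as much as the median of all genes, to 0.38, when libraries are scaled to all recovered fragments, and 6 of the 10 then lie above 0.

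The exons and the snoRNAs of a host are made from the same transcript, and the table listed 35 small RNA genes inside the 10 members: 33 snoRNA genes, 1 small Cajal body RNA gene and 1 miRNA gene. In these counts Snord80 and Snora16a are each entered more than once. All 32 that lie wholly within annotated host exons, where retained-intron transcript models cover them, were listed at 0 in all 4 libraries. Over the whole table, 131 of 131 snoRNA genes wholly inside an exon of a host on the same strand were listed at 0, against 328 of 509 (64.4%) that lie in an intron. Absent fragments and fragments counted to the host, or to no gene because 2 genes claim them, cannot be told apart here, so a 0 in these rows is not a measure of the snoRNA. The small RNA genes take up 20.9% of the exon bases of Snhg1, 19.6% of those of Snhg12 and 17.8% of those of Gas5.

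**Figure D4:**
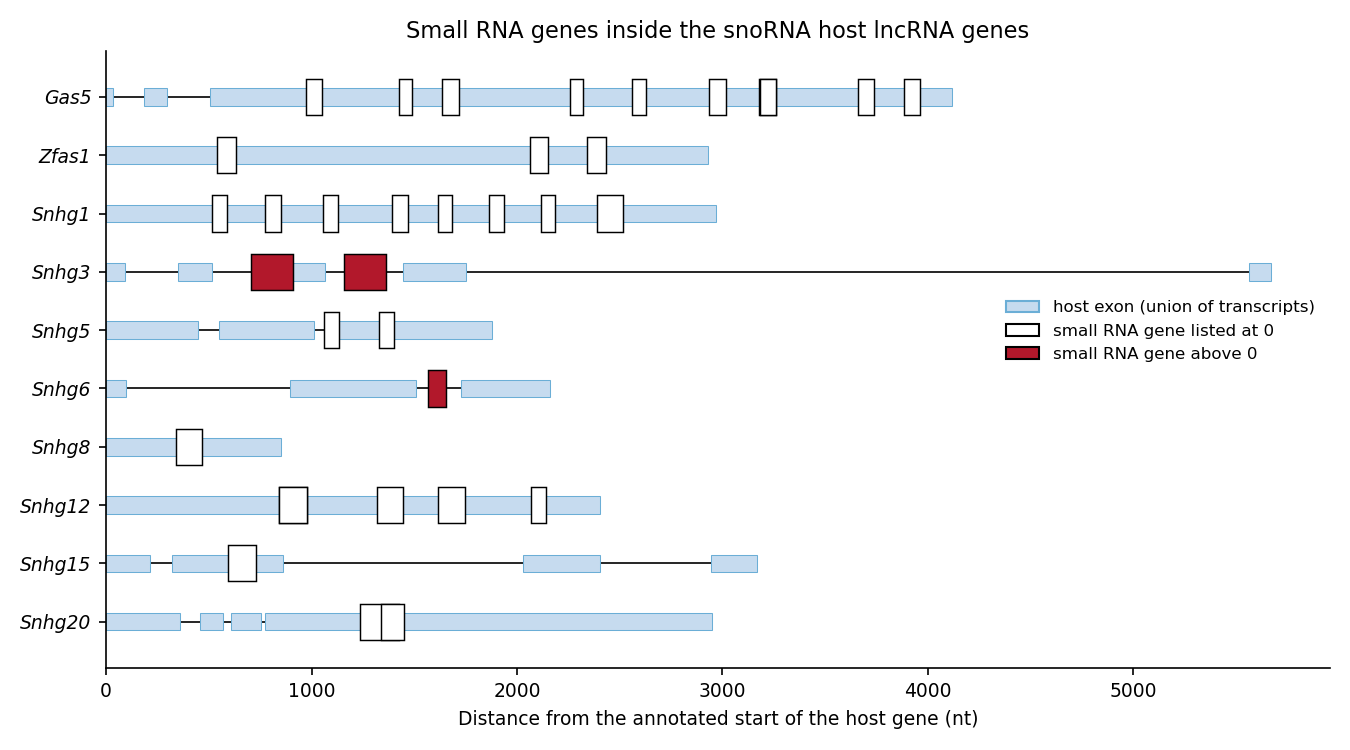
Map of the 10 genes from the annotated start (nt), with the union of annotated exons in blue and small RNA genes as boxes, white where listed at 0 in all 4 libraries and red where above 0. Some boxes overlap where the annotation lists a gene more than once. The 3 red boxes, 2 in Snhg3 and 1 in Snhg6, are those that are not wholly covered by host exons.

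Of the 3 small RNA genes above 0, Snora73b and Snord87 are shown because they lie wholly outside the annotated exons of their hosts. Fragments of unspliced host RNA could be counted in these rows too, and were not told apart from the snoRNA. Capitals mark an ACA near the 3′ end of the box H/ACA snoRNA, and a C box (TGATGA) and D box (CTGA) near the ends of the box C/D snoRNA, as found by a search for these letters in the GENCODE M21 transcripts.
Snora73b, in Snhg3, chr4:132352322-132352526, minus strand: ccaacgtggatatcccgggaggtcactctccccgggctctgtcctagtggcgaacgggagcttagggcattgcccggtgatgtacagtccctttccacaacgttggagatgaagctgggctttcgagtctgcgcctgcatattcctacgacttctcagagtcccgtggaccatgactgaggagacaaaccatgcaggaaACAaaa
Snord87, in Snhg6, chr1:9942463-9942549, minus strand: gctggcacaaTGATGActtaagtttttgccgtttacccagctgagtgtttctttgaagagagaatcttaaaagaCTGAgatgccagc

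Snora73b, which acts in the processing of ribosomal RNA precursors, was at 856 and 1162 FPKM in shNC and at 834 and 819 FPKM in shNAT10. It held 2062 to 2827 fragments per library, where the exons of its host Snhg3 held 272 to 452. Both shNAT10 libraries were lower, only just so against shNC replicate 1, and the log2 fold change of -0.27 ± 0.18 (SE) did not pass the threshold (adjusted p = 0.531, limma). Snora73a differs from it at 7 of 205 bases, so reads of the pair may have been shared out between them, and it was at 0.831, 4.93, 4.27 and 3.50 FPKM in the same order of libraries, on 2 to 12 fragments each. The lincRNA gene Gm17300 lies over Snora73b on the opposite strand, at 218 to 285 FPKM, and the sources used here do not say whether counting used the strand, so the levels of these 2 genes cannot be told apart.

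Snord87 was at 18.6 and 15.5 FPKM in shNC and at 10.1 and 7.50 FPKM in shNAT10. No shNAT10 library reached a shNC library, and it passed the unadjusted threshold at -0.96 ± 0.19 (SE), with an adjusted p of 0.126 by limma. Of the 4 fits that left out a library, only that without shNAT10 replicate 1 kept the call. These levels stood on 10 to 19 fragments per library, and by limma-voom on the fragments the adjusted p was 0.307. Its host Snhg6 was at -0.25 and overlapped between groups.

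Genes that share a start region or exons with a member were also read. Where exons are shared, fragments can be counted to either gene. Slc3a2, the heavy chain of an amino acid transporter, starts 106 bases from Snhg1 on the opposite strand and shares no exon base with it. It was at 87.3 and 62.1 FPKM in shNC and at 46.1 and 46.6 FPKM in shNAT10, and passed the unadjusted threshold at -0.67 ± 0.18 (SE), with an adjusted p of 0.205 by limma. The call held without shNC replicate 1 or without shNC replicate 2, and was lost without either of the shNAT10 replicates. Snhg1 and Slc3a2 were thus both lower in shNAT10 on the deposited scale.

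Rcc1, the nuclear exchange factor of the GTPase Ran, overlaps Snhg3 on the same strand and shares 135 exon bases with it, 13.7% of the Snhg3 exons. It was at 24.2 and 19.5 FPKM in shNC and at 24.5 and 25.5 FPKM in shNAT10 and, like Snhg3, did not pass the threshold. On the opposite strand Mcmdc2 shares 127 exon bases with Snhg6 and Znfx1 shares 82 with Zfas1, and Zbtb37 overlaps Gas5 without sharing an exon base. These 3 genes were at 0.661 to 1.30 FPKM in every library, and none passed the threshold.

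Outside the 10 members, 9 further snoRNA host lncRNA genes were tested, of which 2 fell and none rose, with a median of -0.074, beside 7.83% lower and 8.41% higher over all genes tested. The 2 of 9 were not kept by the other settings: 1 passed as lower after quantile normalization, none on either scale without the ribosomal RNA loci or with all recovered fragments, and 0 had an adjusted p under 0.05 by limma-voom. Snhg17 was at 6.76 and 6.30 FPKM in shNC and at 4.61 and 5.48 in shNAT10 (-0.37). Epb41l4aos was at 19.0 and 21.6 FPKM in shNC and at 15.2 and 16.8 in shNAT10 (-0.34). Snhg17 passed only without shNAT10 replicate 2 among the fits that left out a library, and Epb41l4aos in none of them. Both were smaller shifts than those of the 4 members that fell.

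Protein-coding hosts of snoRNAs, most of them ribosomal protein genes with 5′TOP starts, fell in 13 and rose in 2 of 43, with a median of -0.22, beside 7.83% lower and 8.41% higher over all genes tested. Most of these hosts had a mean of at least 5 FPKM, a level at which 14.3% of genes passed as lower. On either scale without the ribosomal RNA loci 8 fell and 2 rose, and scaled to all recovered fragments none fell and 5 rose, beside 26.3% higher over all genes. The ribosomal protein gene Rpl10 was at 83.8 and 85.2 FPKM in shNC and at 60.9 and 57.5 in shNAT10 (-0.51). Ribosomal protein genes have many near-identical processed pseudogenes, so their counts are uncertain.

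Most of the proteins that bind and build snoRNAs did not pass the threshold on the deposited scale. Over all genes tested, 7.83% passed as lower and 8.41% as higher there, so most genes did not pass either. Of 8 core proteins of box C/D and H/ACA particles, only Nhp2, a core protein of the H/ACA kind, passed the threshold, at 76.8 and 78.0 FPKM in shNC against 104 and 98.0 FPKM in shNAT10 (0.38). Fbl, Nop56, Nop58, Snu13, Dkc1, Gar1 and Nop10 did not pass. Scaled to all recovered fragments, where 26.3% of all genes tested passed as higher, 7 of the 8 did. None of 12 assembly factors passed on the deposited scale, beside the same 7.83% and 8.41% of all genes tested. The list had 0 at an unadjusted p under 0.05 by limma, 0 at an adjusted p under 0.05 by limma-voom and a median of 0.098. With all recovered fragments as the scale 5 passed as higher, beside the same 26.3% of all genes.

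Nonsense-mediated decay factors fell in 3 and rose in 1 of 18 on the deposited scale, with a median of -0.24, where 7.83% of all genes tested passed as lower and 8.41% as higher. On either scale without the ribosomal RNA loci none fell and 1 rose, scaled to all recovered fragments none fell and 7 rose, beside 26.3% of all genes as higher, and by limma-voom 0 had an adjusted p under 0.05. Upf3b, which links exon junctions to the decay machinery, was at 1.64 and 1.29 FPKM in shNC and at 2.41 and 2.20 in shNAT10 (0.63). Dhx34, a helicase that acts with Upf1, was at 2.22 and 1.76 FPKM in shNC and at 1.35 and 1.24 in shNAT10 (-0.58). Rbm8a, a core protein of the exon junction complex, was at 13.9 and 12.3 against 10.7 and 9.07 FPKM (-0.41). When a library was left out, Upf3b passed only without shNC replicate 1, and Dhx34 and Rbm8a in no such fit.

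Of 10 known targets of nonsense-mediated decay, 3 fell and 1 rose, with a median of -0.10, beside 7.83% and 8.41% of all genes tested. Scaled to all recovered fragments 2 fell and 4 rose, beside 1.55% and 26.3%. The 3 that fell, Ddit3, Atf3 and Atf4, are transcription factors of the stress response that is driven by phosphorylation of eIF2. Ddit3 was at 39.5 and 48.4 FPKM in shNC and at 16.9 and 17.6 in shNAT10 (-1.34, adjusted p = 0.0489, limma). Atf3 was at 7.63 and 7.74 against 3.40 and 3.60 FPKM (-1.11). Atf4 was at 221 and 201 against 144 and 130 FPKM (-0.62).

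Of 16 regulators of 5′TOP translation, Eif4ebp2 alone passed, a repressor of cap-dependent translation, at 3.49 and 3.44 FPKM in shNC against 5.47 and 5.83 FPKM in shNAT10 (0.69). Over all genes tested, 8.41% passed as higher and 7.83% as lower, so this count did not stand out. Larp1, Mtor and the other 13 did not pass, and the median of the list was -0.063. With all recovered fragments as the scale, 6 of the 16 passed as higher, beside the same 26.3% of all genes.

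**Figure D5:**
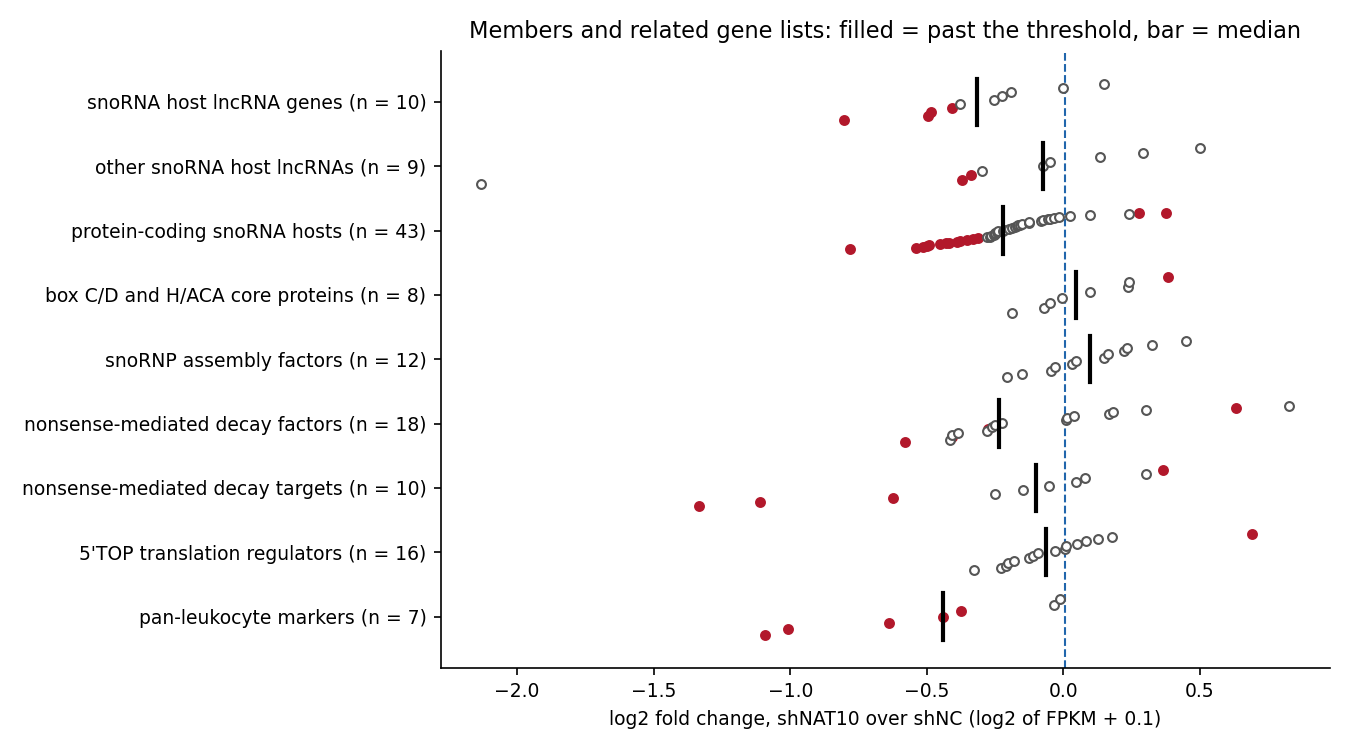
Log2 fold change (shNAT10 over shNC, on FPKM + 0.1, deposited scale) of each tested gene in the 10 members and in 8 related lists, with filled points past the unadjusted threshold, bars at the medians, and a dashed line at the median of all genes tested. The medians are -0.32 for the members, -0.22 for protein-coding snoRNA hosts, -0.24 for nonsense-mediated decay factors and -0.44 for pan-leukocyte markers. Scaled to all recovered fragments, the medians of all these lists but the pan-leukocyte markers were above 0.

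The 5 genes whose profile over the 4 libraries was nearest to the mean profile of the members, among 6006 genes with a mean of at least 5 FPKM, were Plekho1, Cyb5b, Dazap2, Ivns1abp and Msl3. Likeness was the Euclidean distance between log2 values centred on each gene's mean, and it was 0.0246 to 0.0330 for these 5. The mean centred profile of the members was 0.16 and 0.15 in shNC and -0.15 and -0.16 in shNAT10. Ivns1abp, as an example, was at 53.7 and 52.4 FPKM in shNC and at 42.0 and 41.9 FPKM in shNAT10.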

How the data were processed

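The deposited table held FPKM values per gene, which the authors computed after trimming and alignment; per the labels, their processing notes name cutadapt, HISAT2, DESeq2 and mm10. The annotation and the use of strand in counting are not given in the sources used here, and neither is how FPKM were scaled. The labels describe poly(A) selection and the study's methods rRNA depletion. The study's test needs counts, so limma 3.58.1 in R 4.3.3 (trend, two-sided) was fitted to log2(FPKM + 0.1), shNC against shNAT10. The fit covered 20116 genes whose mean FPKM reached 0.1, with Benjamini-Hochberg adjustment over all of them. The threshold, fold change over 1.2 at p of at most 0.05, was taken from a figure legend of the study. Gene IDs were matched to GENCODE M21 (53360 of 53465). FPKM times exon length gave whole fragments, within 0.02 for 96.0% to 96.5% of values under 50 fragments, with divisors of 11745619 to 15330648 fragments. After this, the median ratio of each library to the geometric mean of all was 1.0044 in all 4. Intervals cover these libraries only. In simulated data for this comparison, 198 of 200 genes changed 2-fold were recovered. These 200 were drawn only from genes at higher levels with more fragments, and changes as small as those of the members were not simulated.

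The members and gene lists were chosen with earlier results of these data known. Named genes were the members, Nat10, list genes with an adjusted p under 0.05 and up to 3 per list with the largest fold change past the threshold at a mean of at least 1 FPKM, small RNA genes and neighbours past the threshold or highest for their member, and the 5 most alike genes. Some genes that this rule names are not reported here. The lists were other snoRNA host lncRNAs, protein-coding hosts, snoRNP core proteins and assembly factors, nonsense-mediated decay factors and targets, 5′TOP regulators, rRNA-related loci and markers of germline stem cells, granulosa cells, fibroblasts and leukocytes. A deposited table of the authors' own fold changes and p-values was not used. Alternatives were other pseudocounts, filters, scalings, no trend, limma-voom on fragments, a replicate block and each library left out.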

Additional observations from a re-analysis of the deposited data

How the results depend on the processing

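On the deposited scale, 4 members passed the threshold and the members' median was -0.32, and 3267 of all genes passed. With the libraries scaled to all recovered fragments, an alternative chosen after seeing the data, 2 members passed, both higher, the median was 0.088 and 5599 genes passed, 5.57% of them lower against 48.2% on the deposited scale. Snhg5 was then at 0.17, Snhg6 at 0.15, Snhg12 at 0.023, Snhg15 at 0.40 and Snhg20 at 0.21. Gas5, at -0.090, Zfas1, at -0.079, Snhg1, at -0.0013, and Snhg8, at -0.40, kept their sign but were weaker and did not pass. With the same FPKM total outside the rRNA-related loci the median was -0.24 and Snhg15 at 0.069, and 34.5% of the genes past the threshold were lower, and with fragment totals outside those loci as the scale, also added later, they were -0.25, 0.059 and 36.6%. Snhg15 was at 0.022 after quantile normalization. The median-ratio rescaling changed nothing, since the deposited values already had equal factors. Leaving out each library in turn gave 2 to 4 members, a median of -0.39 to -0.34 and 2007 to 3393 genes, with Snhg3 between -0.015 and 0.31 and Snhg15 between -0.14 and 0.14. Without shNC replicate 1 the 4 members held Snhg12 (-0.62) in place of Snhg8, and without shNC replicate 2 they held Snhg3 as higher (0.31) in place of Snhg1. Without shNAT10 replicate 1 Snhg8 was lost, and without shNAT10 replicate 2 Snhg8 and Snhg1 were. In these fits the lone library of a group is assumed to vary like the other group. Without the trend Snhg1 had an unadjusted p of 0.0576 by limma, and 3 members passed. The cause of these changes was not tested. Gas5 and Zfas1 stayed past the threshold in 15 of 16 alternatives, the exception being the scaling to all recovered fragments.

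The replicate number as a block gave 4 members, a median of -0.32 and 3114 genes, and changed no member's call. The deviations of same-numbered libraries correlated at 0.00711 over all genes tested, low-level genes included. No general pairing by number was seen in this value, but it cannot exclude a shared batch or infection. Among the members depth limits Snhg5 and Snhg8 most, and of the small RNA genes above 0 Snora73a and Snord87.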

Other observations

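Beside the leukocyte markers, the lists for other cells gave mixed values, where 7.83% of all genes tested passed as lower and 8.41% as higher. Of the 10 germline stem cell markers 4 were tested, and of these the receptor tyrosine kinase gene Kit, at 24.5 and 21.2 FPKM in shNC against 14.5 and 15.6 FPKM in shNAT10, and the transcription factor gene Etv5, at 6.95 and 5.89 against 3.57 and 3.47 FPKM, passed the unadjusted threshold as lower on the deposited scale. The other 2, Ifitm3, at 9.29 and 22.2 against 27.1 and 33.6 FPKM, and Zbtb16, at 0.338 and 0.367 against 0.468 and 0.593 FPKM, had both shNAT10 values above both shNC values without passing it, and Ifitm3 had an adjusted p of 0.0057 by limma-voom. None of the 4 granulosa cell markers tested passed, and 2 of the 7 in the list, Foxl2 and Fshr, were listed at 0. Of 7 fibroblast markers 3 rose, which were the fibrillar collagen gene Col3a1, at 0.677 and 0.575 against 1.16 and 1.51 FPKM (0.98), Pdgfra, at 6.74 and 5.08 against 10.8 and 10.2 FPKM, and Thy1, at 2.42 in both shNC libraries against 4.36 and 3.99 FPKM. The collagen genes Col1a1 and Col1a2 did not pass. Among the fits that left out a library, Col3a1 passed only without shNAT10 replicate 1, Pdgfra only without shNC replicate 1 or without shNC replicate 2, and Kit in all but that without shNAT10 replicate 1.

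Of 7 pan-leukocyte markers 5 fell on the deposited scale, beside 7.83% of all genes tested, and 3 or 4 on the scales without the rRNA-related loci. Ptprc and Coro1a did not pass on the deposited scale. When libraries were scaled to all recovered fragments 1 fell and 1 rose, beside 1.55% and 26.3% of all genes. Fcer1g, a signalling chain of Fc receptors, was at 43.5 and 47.8 FPKM in shNC and at 21.9 and 23.4 in shNAT10 (-1.01, adjusted p = 0.0489, limma). Laptm5 was at 13.0 and 8.54 against 6.16 and 7.35 FPKM, and Tyrobp at 21.7 and 23.5 against 17.2 and 16.0 FPKM. Laptm5 passed only without shNC replicate 2 when a library was left out, and Tyrobp in all such fits but that without shNAT10 replicate 2. Of 8 loci tested in the rRNA-related list, 6 had both shNAT10 libraries below both shNC libraries, beside 24.1% of all genes tested. By limma-voom 5 were lower at an adjusted p under 0.05, beside 4.24% of the genes in that fit. By limma on FPKM 2 passed as lower, beside 7.83% of all genes tested. The 2 were CT010467.1, from 61820 and 42340 to 20030 and 21970 FPKM, and Rn7s2, a signal recognition particle RNA gene and no rRNA locus, from 10.5 and 21.9 to 2.39 and 4.13 FPKM. With a library left out CT010467.1 passed in no fit and Rn7s2 only without shNC replicate 1. Gm42418, named after its values were seen, was at 160400 and 97140 against 41240 and 50330 FPKM (adjusted p = 6.4e-08, limma-voom, and 0.321, limma on FPKM). The part of these differences in the levels of the snoRNA host lncRNA genes was not tested.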
